A study of Mus musculus with 2 samples.

Results

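Batf, Batf2 and Batf3 are the 3 genes of the BATF family among the 17751 genes of the deposited tables. They were chosen by name, with no measured value in the rule, although earlier results of these data were known. They were followed in the raw unique molecular identifier (UMI) counts across the 20 clusters (C0 to C19) of splenic CD11c+ MHCII+ cells, in WT and in Batf3-/- mice. The comparison asked whether the other 2 family members changed where Batf3 was absent.

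The cells came from T and B cell depleted spleens of female mice aged 8 weeks. The WT library was made from 6 pooled C57BL/6 mice and the Batf3-/- library from 6 pooled Batf3-/- mice of the same strain, in which all cells carry the mutation. WT mice were bought in, whereas Batf3-/- mice were bred in house, so genotype and origin cannot be told apart. CITE-seq, a droplet method that counts the RNA and the bound antibody tags of each cell, was performed once, with 12224 WT cells (122530055 UMIs, median 8374.5 per cell) and 12119 Batf3-/- cells (114517073 UMIs, median 8516 per cell). The dendritic cell genes of the sort (Itgax, H2-Aa, H2-Ab1 and Cd74) summed to at least 12193 of 1000000 UMIs in all clusters of at least 20 cells but C19, the cluster labelled as stem cells, where the sums were 927 in WT and 5706 in Batf3-/-. With 1 library per genotype there was no biological replicate and no test was made. All intervals are 95% intervals that cover counting error only, and "apart" or "overlap" below refers to these. In such sums, fewer expressing cells and less RNA per cell cannot be told apart without the shares of cells given beside them.

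BATF proteins are small basic leucine zipper (bZIP) transcription factors. They pair with JUN proteins on AP-1 sites, and act with IRF4 or IRF8 on composite AP-1 and IRF elements. BATF3 sustains Irf8 expression in the precursors of conventional type 1 dendritic cells (cDC1). BATF serves T helper 17 cells, follicular helper T cells and B cell class switching, and both BATF and BATF2 are known to be able to stand in for BATF3 in cDC1 development under inflammatory stimuli such as IL-12 or interferon-γ.

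The sequences before the transcript starts are shown to compare the annotated promoters of Batf and Batf3, although counts of 3′ ends do not show which start was used. In GENCODE M21 (GRCm38), Batf lies on chromosome 12 from 85686669 to 85709087, Batf2 on chromosome 19 from 6140983 to 6172476, and Batf3 on chromosome 1 from 191097847 to 191108945, all on the + strand. Each coding transcript has 3 exons, and these encode 125, 277 and 118 amino acids. No other annotated gene overlaps Batf or Batf3, whereas 3 overlap the span of Batf2, 2 of them on the same strand (n-R5s19 and Gm5510). Whether these overlaps reach the counted 3′ end, and so affect the low Batf2 counts, was not tested. The windows below come from RefSeq promoter sequences of build GRCm38.p6 and end at the base before the coding transcript starts (chr12:85686470-85686668 for Batf, chr1:191098164-191098324 for Batf3, both + strand, 5′ to 3′). Capitals mark matches on either strand to TGACGT (the core of a cAMP response element), CACGTG (an E-box) or GGGCGG (a GC box).
Batf: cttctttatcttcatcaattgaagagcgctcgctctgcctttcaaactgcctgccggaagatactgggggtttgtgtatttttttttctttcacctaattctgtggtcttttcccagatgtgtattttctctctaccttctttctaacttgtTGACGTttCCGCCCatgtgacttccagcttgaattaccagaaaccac
Batf3: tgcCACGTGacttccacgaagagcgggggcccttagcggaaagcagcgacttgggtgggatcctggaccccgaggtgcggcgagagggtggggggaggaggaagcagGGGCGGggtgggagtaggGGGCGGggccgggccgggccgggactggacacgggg

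The windows differed in base composition, with 42.2% G or C in the 199 bases of Batf and 73.3% in the 161 bases of Batf3. Medians were 51.8% and 50.9% over the first 199 and 161 bases of all 32851 promoter sequences. Those windows were not set to end at a coding transcript start, so the shares below are not matched in position. Batf held 1 TGACGT match, which 4.12% of all windows of that length hold, and 1 GC box, which 24.4% hold. Batf3 held 1 E-box, a motif in 3.16% of windows, and 2 GC boxes, where 18.2% of windows hold at least 1. The AP-1 letters TGANTCA and the IRF-type repeat (GAAA, any 2 bases, GAAA), searched on both strands, were in neither window. These letters occur in 5.55% and 2.40% of windows of the length used for Batf, and in 4.41% and 2.03% of those used for Batf3. No motif match overlapped another.

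Batf3 was the most widespread signal of the family in WT cells and checked the genotype labels. In WT it gave 25257 UMIs, or 206 per 1000000 UMIs (CPM), and 8663 of 12224 cells (70.9%) carried at least 1. In the Batf3-/- library it gave 285 UMIs, or 2.49 CPM, in 259 of 12119 cells (2.14%). The level in Batf3-/- cells was 1.21% of the WT level, a log2 ratio of -6.37 (-6.55 to -6.20). With every cell thinned to 1000 UMIs the shares were 16.8% (16.1 to 17.4) and 0.455% (0.343 to 0.592). Thinning left out 28 WT and 42 Batf3-/- cells.

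In WT, Batf3 was highest in mature cDC1 (C12, 313 CPM), C16 (311 CPM), the low-UMI cluster C9 (301 CPM), Il4i1+ cDC2 (C1, 297 CPM) and mitotic cDC1 (C6, 288 CPM). The intervals of the ratios between neighbours in this order included 0, so neighbours among these 5 clusters could not be ranked. Pairs further apart in the order were not compared. Immature cDC1 (C4) followed at 238 CPM, below C6 by more than counting error, and C5 at 185 CPM was below C4. Immature cDC2a (C0) and cDC2b (C2) held 180 and 141 CPM. Sox4+ cDCs (C3) were low at 87.6 CPM and pDCs (C14) lower at 39.1 CPM (29.9 to 50.2). C19 had 1 UMI in 29 cells. Of the 19 pairs of neighbours in the WT order, 5 were apart by more than counting error.

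Before any correction for depth, the share of cells with a Batf3 UMI was high in C6 and C4. In WT C6, 782 of 797 cells (98.1%) had a Batf3 UMI and 665 had 3 or more, with up to 17 in 1 cell. In WT C4, 2037 of 2202 cells (92.5%) had one. These cells were also the deepest, with medians of 19599 and 15398.5 UMIs per cell, against 6176 in C1. After thinning to 1000 UMIs the shares in C6, C1 and C12 were 25.0% (22.0 to 28.1), 25.0% (21.9 to 28.3) and 25.6% (21.4 to 30.3), which overlap. C4 was at 21.7% (19.97 to 23.5) and C16 at 32.8% (21.01 to 46.3). At 5000 UMIs, which left out 226 of the 721 C1 cells and 137 of the 394 C12 cells, the shares were 75.5% (72.4 to 78.5) in C6, 64.8% (60.5 to 69.1) in C1 and 75.5% (69.8 to 80.6) in C12, with 67.3% (65.3 to 69.3) in C4 and 70.7% (57.3 to 81.9) in C16. At that depth C6 was above C1 and C4 by more than counting error and overlapped with C12 and C16, and C4 was below C12. As a background, T cells (by the deposited SingleR label) of WT C13 carried Batf3 in 1 of 56 cells (1.79%) at a median of 4307.5 UMIs.

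**Figure D1:**
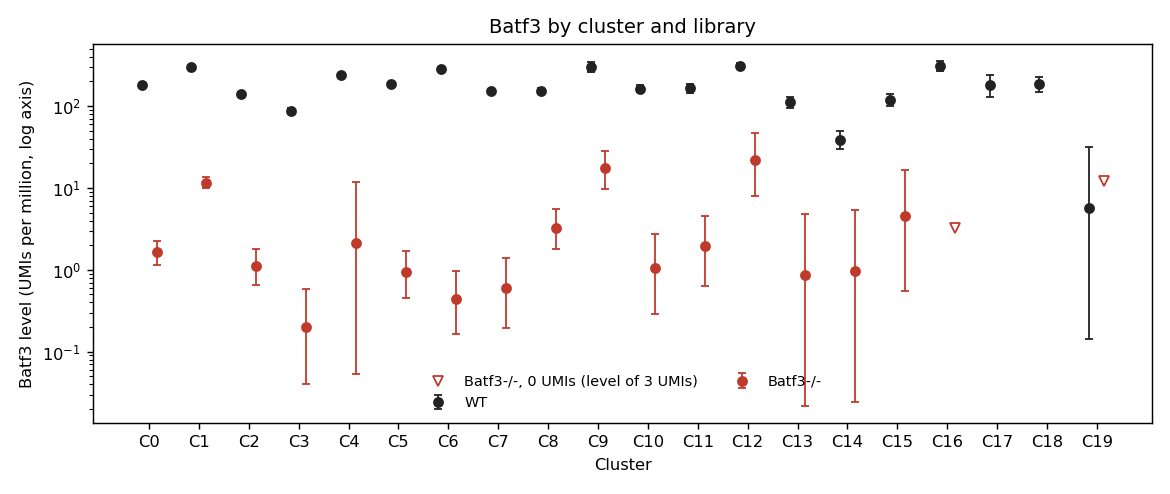
Batf3 level in CPM (log axis) in each cluster with at least 20 cells, in WT (black) and Batf3-/- (red). Bars are 95% Poisson intervals, and open triangles mark clusters with 0 UMIs at the level of 3 UMIs. The Batf3-/- points lie below the WT points in every cluster shown for both libraries except C19, and of the filled Batf3-/- points those of C12, C9 and C1 are the highest.

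The remaining Batf3 UMIs in Batf3-/- cells were not spread evenly. C1 held 159 of the 285, at 11.6 CPM, which was 3.90% of its WT level. C9 held 15 UMIs at 17.4 CPM (5.78% of WT), C12 held 6 at 21.7 CPM (6.94% of WT) and C8, mature cDC2a, held 14 at 3.29 CPM (2.12% of WT). These 4 clusters, grouped after their values were seen, took 68.1% of the Batf3 UMIs of the library and 16.7% of all its UMIs. Outside them C15 held 2 UMIs at 4.59 CPM (3.81% of WT) and C14 held 1 (2.45% of WT). In contrast, C6 held 6 UMIs at 0.446 CPM (0.155% of WT), C3 held 3 at 0.198 CPM (0.226% of WT) and C0 held 36 at 1.65 CPM (0.912% of WT). C16, among the highest for Batf3 in WT with 230 UMIs, had none in 68 Batf3-/- cells. Set at a floor of 3 UMIs, these cells were 96.7-fold lower. The 95% interval of the ratio is wider and reaches up to -6.28 on the log2 scale, a smaller fall. No neighbours in the residual order were apart by counting error, but distant clusters were, as C1 over C0 (log2 ratio 2.82, 2.29 to 3.38).

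Across the 15 clusters with at least 50 cells in both libraries, the Spearman rho of Batf3 levels between WT and Batf3-/- was 0.15, a description over clusters that share a library and its depth. Residual UMIs in C1 were mostly single, with 132 cells at 1 UMI, 12 at 2 and 1 at 3 or more, while the 6 UMIs of C12 came from 2 of 31 cells. In Batf3-/- C1, cells with a UMI of Ccr7, the chemokine receptor of migrating mature dendritic cells, carried Batf3 in 142 of 1593 cells (156 UMIs). Cells of C1 without a Ccr7 UMI carried it in 3 of 252 (3 UMIs). Split by Fscn1, another mature marker, C1 held 12.6 CPM with and 4.54 CPM without its UMI (137 of 1584 and 8 of 261 cells). In C8 the levels were 4.09 and 1.91 CPM by Ccr7, and 7.89 and 1.34 CPM by Fscn1, from 3 to 11 UMIs each. In C9 the levels were 34.8 CPM with and 8.67 CPM without a Ccr7 UMI, from 10 and 5 UMIs. Split by Fscn1, the C9 levels were 17.8 CPM with and 17.3 CPM without a Fscn1 UMI, from 3 and 12 UMIs.

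The 56 Batf3-/- cells whose barcode sequence also occurs in the WT library held 1 of the 285 UMIs. Without cells called doublets by Scrublet, C1 kept 143 Batf3 UMIs in 1750 cells at 11.6 CPM, C9 kept 15 and C12 kept 6. The reads tag the 3′ end of transcripts, and the sources used here do not say which exons the mutation removes, so a residual UMI does not show an intact Batf3 transcript.

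Batf UMIs were few but found in nearly every cluster, and their level differed little between the genotypes. No background from RNA of other cells or from mixed droplets was measured for this gene. Batf gave 2385 UMIs in WT and 2057 in Batf3-/- cells, or 19.5 and 18.0 CPM, a log2 ratio of -0.12 (-0.20 to -0.03). With clusters weighted by the same WT shares it was -0.17, where the Batf3-/- level of C4 rests on 5 UMIs in 31 cells. With C4 left out of these clusters the log2 ratio was -0.029. A Batf UMI was found in 2027 WT cells (16.6%) and 1757 Batf3-/- cells (14.5%), most of which carried only 1 (1742 and 1517). At 1000 UMIs per cell the shares were 1.97% (1.73 to 2.23) and 1.62% (1.41 to 1.86), which overlap. They were apart at 2000 UMIs, with 3.92% (3.58 to 4.29) and 3.23% (2.92 to 3.57), and at 5000 UMIs, with 9.46% (8.90 to 10.04) and 8.18% (7.66 to 8.72). C19 had no Batf UMI in 29 WT cells, a level of up to 16.96 CPM by a floor of 3 UMIs (95% upper limit 20.9).

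Mature cDC1 (C12) and the NK, NKT, ILC and T cell cluster C13 had the highest Batf levels among clusters of at least 20 cells in both libraries. C12 held 46.2 CPM in WT (38.8 to 54.6, 137 UMIs in 394 cells) and 54.2 CPM in Batf3-/- (30.4 to 89.5, 15 UMIs in 31 cells). C13 held 53.6 CPM in WT and 46.9 CPM in Batf3-/-. In each library the lower of these 2 was above the third cluster, C11, by more than counting error, with log2 ratios of 0.88 (from 0.38) in WT and 1.05 (from 0.49) in Batf3-/-. Intervals of small clusters further down, such as WT C17 (up to 43.9 CPM) and Batf3-/- C15 (up to 33.1 CPM), reached those of C12. No other neighbours in either order were apart, and the other clusters with at least 20 Batf UMIs in a library lay between 12.2 and 25.1 CPM. Across the 15 clusters with at least 50 cells in both libraries, the Spearman rho of Batf levels between the libraries was 0.86, again a description.

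**Figure D2:**
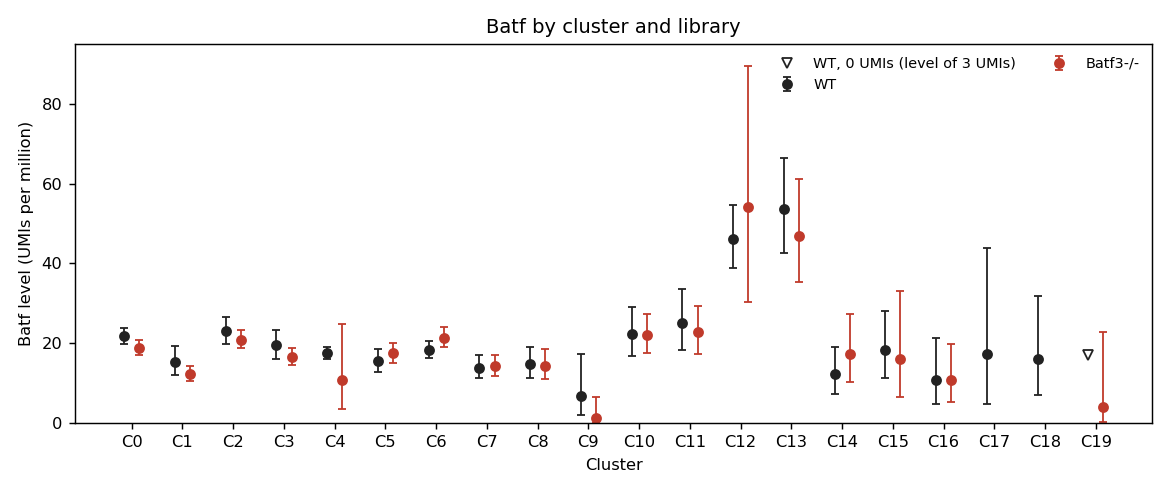
Batf level in CPM in each cluster with at least 20 cells, in WT (black) and Batf3-/- (red), with 95% Poisson intervals. The open triangle marks 0 UMIs in WT C19 at the level of 3 UMIs. C12 and C13 lie at 46.2 to 54.2 CPM, and the points of the 2 libraries lie side by side in most clusters.

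Batf was higher in mature than in immature cDC1, lower in mature than in immature cDC2a, and could not be told apart in cDC2b. Between immature and mature WT cDC1 (C4 and C12) it went from 17.5 to 46.2 CPM, a log2 ratio of 1.40 (1.12 to 1.67). In Batf3-/- the same pair had 10.6 and 54.2 CPM (2.35, 0.82 to 4.17), from only 5 and 15 UMIs. Between immature and mature cDC2a (C0 and C8) Batf was lower in the mature cells, at 21.7 and 14.7 CPM in WT (-0.56, -0.97 to -0.17) and at 18.9 and 14.3 CPM in Batf3-/- (-0.40, -0.81 to -0.01). Between C2 and C11, the cDC2b pair, it was 22.9 and 25.1 CPM in WT (0.13, -0.37 to 0.61) and 20.9 and 22.7 CPM in Batf3-/- (0.12, -0.31 to 0.53). Il4i1+ cDC2 (C1), with 2843 CPM of summed mature DC markers in WT, was also low for Batf, at 15.3 CPM in WT and 12.2 CPM in Batf3-/-. Batf3 in the same WT pairs had log2 ratios of 0.39 (0.29 to 0.49) in cDC1, -0.22 (-0.34 to -0.10) in cDC2a and 0.22 (0.03 to 0.41) in cDC2b.

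The Batf signal of C12 rested on many cells in WT but on few in Batf3-/-. In WT, 87 of 394 C12 cells (22.1%) had a Batf UMI, of which 20 had 2 and 12 had 3 or more. In the Batf3-/- library 9 of 31 did (29.0%, 14.2 to 48.0). Of these, 6 had 1 UMI, 2 had 2 and 1 had 5, out of 15 UMIs in all. Thinned to 1000 UMIs, the WT share was 4.10% (2.36 to 6.58) in C12 and 2.30% (1.81 to 2.88) in C0, which overlap. In C4 it was 1.41% (0.959 to 1.99), apart from C12. Without called doublets, C12 held 49.7 CPM in WT and 57.4 CPM in Batf3-/-. The mature markers Ccr7, Fscn1, Il4i1 and Cd40 summed to 4471 CPM in WT C12, and the 7 cDC1 markers to 997 CPM, against 129 and 4711 CPM in C4.

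In C13 the highest Batf level was in cells that SingleR labelled as ILC. These held 104 CPM in WT (71.0 to 147, 32 UMIs in 45 cells) and 122 CPM in Batf3-/- (85.7 to 168, 37 UMIs in 41 cells), while NK cells held 34.1 and 36.6 CPM from 7 and 6 UMIs. WT NKT cells held 72.0 CPM (28.9 to 148, 7 UMIs in 23 cells), an interval that overlaps that of ILC, and WT T cells held 20.8 CPM from 5 UMIs. The cells of C13 labelled DC had 28 Batf UMIs in 45 WT cells (49.7 CPM), with an interval (33.0 to 71.8) that also overlaps that of WT ILC. In Batf3-/- they had 2 in 34 cells (4.49 CPM, 0.544 to 16.2), lower than the WT cells of this label and apart from them. This split by label was not recomputed without called doublets. The DC-labelled cells of WT and Batf3-/- also carried the T cell gene Cd3e (44.4 and 87.5 CPM). At medians of 11427 and 12666 UMIs they were deeper than the other labels of C13. Without called doublets, 200 of 241 WT and 142 of 146 Batf3-/- cells of C13 were left, with Batf at 57.3 and 49.1 CPM. The part of mixed droplets in the DC-labelled values was not tested. Of the 173 Batf3 UMIs of WT C13, 88 were in DC-labelled cells (156 CPM, 35 of 45 cells), 59 in ILC-labelled cells (191 CPM, 20 of 45 cells) and 19 in NK cells (92.5 CPM, 6 of 51 cells). In Batf3-/- C13, 1 DC-labelled cell and none of the 41 ILC-labelled cells had a Batf3 UMI.

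Cluster by cluster, most Batf ratios between Batf3-/- and WT could not be told from 0. Of the 15 clusters with at least 20 Batf UMIs over both libraries and at least 20 cells in each, the ratio was above 0 in 5 and below 0 in 10, with a median of -0.14 and a range from -0.72 in C4 (5 Batf3-/- UMIs) to 0.50 in pDCs (C14, 12.2 and 17.3 CPM from 19 and 18 UMIs, -0.51 to 1.51). The interval covered 0 in 14, the exception being C0 (21.7 and 18.9 CPM, -0.20, -0.39 to -0.01). The C0 interval covered 0 with mitochondrial and ribosomal protein genes left out of the totals (-0.37 to 0.01) and in G1 cells alone (-0.36 to 0.04). In G1 cells alone the intervals of C1 (-0.89 to -0.03) and C13 (-1.29 to -0.01) lay below 0. In the 8 clusters with at least 400 cells in each library, Batf passed a 1.5-fold difference in none. Among all genes with at least 20 UMIs over both libraries, 9.61% of gene and cluster pairs did so in these clusters, or 7.06% in C0, 10.7% in C1, 7.94% in C2, 7.14% in C3, 8.1% in C5, 17.5% in C6, 7.59% in C7 and 10.9% in C8. Over all cells, where the changed mixture of clusters enters, it was 15.9%.

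**Figure D3:**
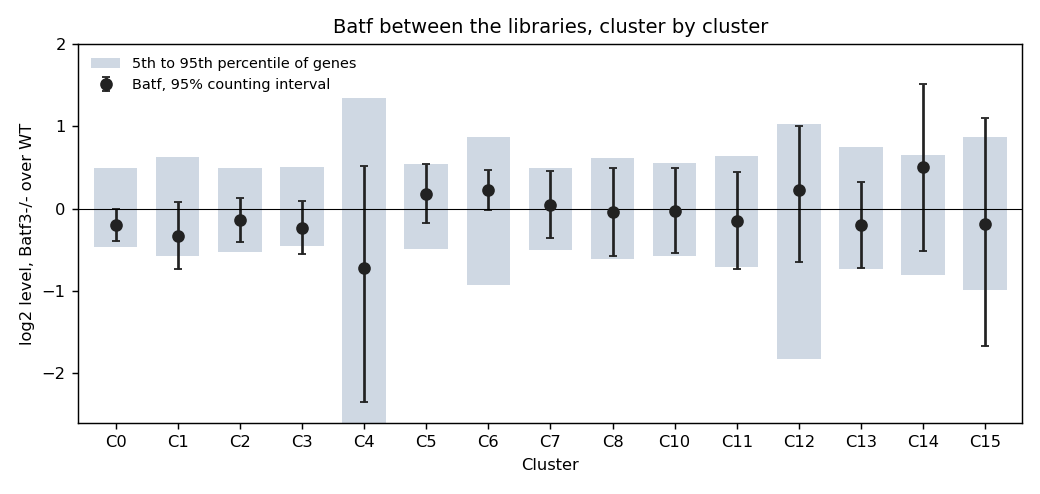
Log2 ratio of the Batf level, Batf3-/- over WT, in the 15 clusters with at least 20 Batf UMIs, with 95% counting intervals. Shaded boxes span the 5th to 95th percentile of the ratios of all genes with at least 20 UMIs in the cluster (for C4 the box runs below the axis). Batf lies inside the box in each cluster shown, and the interval leaves 0 only in C0.

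In mitotic cDC1 (C6), with similar numbers of cells in the 2 libraries, the Batf interval reached just below 0, and lay above 0 under another total. It held 18.2 CPM in WT (285 UMIs in 797 cells) and 21.4 CPM in Batf3-/- (288 UMIs in 727 cells), a log2 ratio of 0.23 (-0.01 to 0.47), or at most 1.39-fold higher by counting error under the totals of all genes. With mitochondrial and ribosomal protein genes left out of the totals it was 0.29 (0.05 to 0.54), which excludes 0. A Batf UMI was found in 29.7% of WT and 30.8% of Batf3-/- C6 cells. After thinning, by a random draw at each depth, no direction was shown, and the shares at 1000 UMIs rest on 18 WT and 12 Batf3-/- cells. The WT and Batf3-/- shares were 2.26% and 1.65% at 1000 UMIs, 3.26% and 4.13% at 2000 UMIs, and 8.37% and 9.27% at 5000 UMIs, and their intervals overlapped at each depth. The 5th to 95th percentile of all genes in C6 ran from -0.93 to 0.87. The 7 cDC1 markers summed to 4087 CPM in WT and 1352 CPM in Batf3-/- C6, and the 4 cDC2 markers to 30.7 and 191 CPM. Xcr1, the chemokine receptor that marks cDC1, was at 397 and 45.7 CPM. The cells under this cluster number thus differed between the libraries, and the part of that difference in the Batf ratio was not tested.

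Batf differed between the deposited cell cycle phases inside C6. Cells in G2M held 12.5 CPM and cells in S held 21.7 CPM in WT (-0.79, -1.19 to -0.41), and 16.0 and 23.4 CPM in Batf3-/- (-0.55, -0.99 to -0.12). In C7, mitotic cDC2a, the direction was the opposite in WT, with 16.3 CPM in G2M and 8.50 CPM in S (0.94, 0.18 to 1.77), and 15.9 and 11.9 CPM in Batf3-/- (0.42, -0.15 to 1.01). WT C6 had 310 cells in G2M and 474 in S. Batf3-/- C6 had 184 in G2M, 354 in S and 189 in G1, the last at 24.1 CPM (18.5 to 30.8). The mixture of phases thus differed between the libraries, and its part in the C6 genotype ratio was not tested.

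C4, immature cDC1, had 31 Batf3-/- cells. These held 5 Batf UMIs (10.6 CPM, 3.45 to 24.8) against 597 in 2202 WT cells (17.5 CPM), a log2 ratio of -0.72 (-2.35 to 0.51). In C12 the ratio was 0.23 (-0.64 to 1.00). Both intervals cover 0, and that of C12 reaches 2.01-fold higher, so smaller differences were not detectable at this depth. C17 and C18, the minor cDC1 clusters, had 1 and 2 Batf3-/- cells, and no ratio was computed.

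Batf2 was near the limit of detection. It gave 58 UMIs in WT (0.473 CPM) and 66 in Batf3-/- (0.576 CPM), a log2 ratio of 0.28 (-0.25 to 0.82), in 46 and 58 cells. With clusters weighted by the same WT shares it was -0.38 (0.476 and 0.367 CPM), and with C4 left out of these clusters 0.84 (0.285 and 0.510 CPM), so that sign was set by C4, where 31 Batf3-/- cells had no UMI. The most in 1 cell was 7 in WT and 4 in Batf3-/-. C2, the cDC2b cluster, held 13 UMIs in 942 WT cells (1.57 CPM) and 36 in 1520 Batf3-/- cells (2.35 CPM, log2 ratio 0.58, -0.37 to 1.62). C4 held 33 in 2202 WT cells (0.966 CPM) and none in 31 Batf3-/- cells, where a floor of 3 UMIs stands for 6.37 CPM (95% upper limit 7.84), so no loss is shown. In monocytes (C15) there were 2 and 1 UMIs, and in C11 2 and 4. C6 had 3 and 6 UMIs (log2 ratio 1.22, -1.01 to 3.84). C7, C9, C12, C14, C16 and C19 had none in either library.

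Within C2, SingleR labelled cells as DC or as monocytes, and Batf2 was found in both. Monocyte-labelled cells held 2.82 CPM in WT (1.29 to 5.35) and 2.63 CPM in Batf3-/- (1.36 to 4.60). DC-labelled cells held 0.789 CPM in WT (0.215 to 2.02, 4 UMIs in 2 cells) and 2.23 CPM in Batf3-/- (1.43 to 3.32, 24 UMIs in 18 cells). The intervals of the 2 libraries overlapped for both labels. Batf2 reached at least 20 UMIs in only C2 and C4. In C2 its log2 ratio of 0.582 lay just under the 1.5-fold limit. It passed this limit with mitochondrial and ribosomal protein genes left out of the totals (0.607) and with called doublets left out (0.587).

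**Figure D4:**
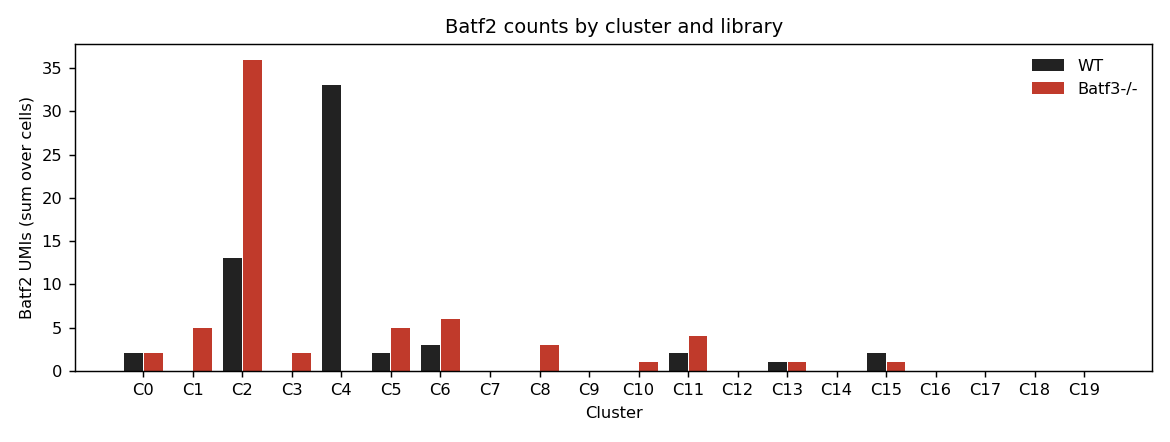
Batf2 UMIs summed over the cells of each cluster, in WT (black) and Batf3-/- (red). Counts are not scaled to the number of cells. C2 and C4 hold most of them, with 13 and 36 in C2 and 33 and 0 in C4, where the Batf3-/- library has 31 cells.

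The AP-1 genes that pair with BATF proteins or compete with them passed 1.5-fold at a share near that of all genes. Of the 9 AP-1 genes on the list (Jun, Junb, Jund, Fos, Fosb, Fosl1, Fosl2, Jdp2 and Atf3), 8 had enough UMIs to be read in the 8 large clusters. Of these 64 gene and cluster pairs 5 passed 1.5-fold (7.81%, against 9.61% of all genes), with 3 higher and 2 lower in Batf3-/-. The median log2 ratio of the list was below that of all genes in 7 of the 8 clusters, at -0.35 in C0, -0.23 in C2, -0.16 in C3, -0.19 in C5, -0.06 in C6, -0.20 in C7 and -0.20 in C8, where the medians of all genes lay between -0.02 and 0.01. In C1 both medians were within 0.01 of 0. Jun, one of the JUN genes on the list, was within 1.5-fold in each of the 8 clusters. Examples are C0, with 1636 and 1627 CPM (-0.01, -0.03 to 0.01), and C6, with 747 and 858 CPM (0.20, 0.16 to 0.24). In C12 Jun was at 674 and 1168 CPM (0.79, 0.62 to 0.96). Over all cells it was at 1295 and 1610 CPM (0.31, 0.30 to 0.32), a ratio that includes the changed mixture of clusters.

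Atf3, a stress-induced bZIP repressor, made up all 3 higher pairs. It was at 62.2 and 139 CPM in C1 (log2 ratio 1.16, 0.99 to 1.34), at 47.7 and 103 CPM in C6 (1.11, 0.98 to 1.24) and at 19.9 and 32.5 CPM in C3 (0.71, 0.42 to 1.00). In C2 it was lower in Batf3-/-, at 145 and 122 CPM (-0.25, -0.36 to -0.15). The few Batf3-/- cells of C4 and C12 had 206 and 159 CPM, against 88.7 and 62.0 CPM in WT. Jdp2, a bZIP repressor related to the BATF proteins, made up both lower pairs, with 7.74 and 4.90 CPM in C6 (-0.66, -1.11 to -0.21) and 6.83 and 4.36 CPM in C7 (-0.65, -1.32 to 0.02).

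Irf8 and Irf4, the interferon regulatory factors that share composite elements with BATF proteins, were read in the same clusters, and 3 of 16 gene and cluster pairs passed 1.5-fold (18.8%, against 9.61% of all genes), all of them Irf8. Irf8 was at 1895 CPM in WT C6 and 941 CPM in Batf3-/- C6 (-1.01, -1.04 to -0.98). It was higher in Batf3-/- in C1, with 98.0 and 194 CPM (0.99, 0.85 to 1.13), and in C8, with 46.8 and 85.9 CPM (0.88, 0.62 to 1.13). The summed mature DC markers of these clusters also differed, at 2843 and 3329 CPM in C1 and 998 and 1615 CPM in C8. The part of that difference in the Irf8 ratios was not tested. Irf4, which is linked to cDC2, held 2.43 and 3.64 CPM in C6 (0.58, -0.06 to 1.23) and did not pass 1.5-fold in any of the 8 large clusters. Over all cells Irf8 went from 891 to 217 CPM, a fall that includes the lower share of cDC1 in the Batf3-/- library.

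**Figure D5:**
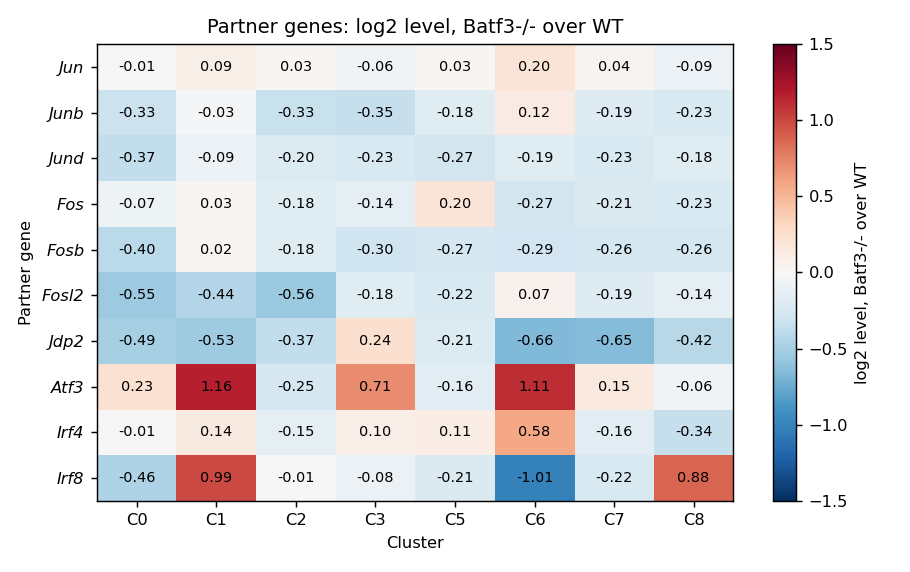
Log2 ratio, Batf3-/- over WT, of the AP-1 and IRF partner genes in the 8 clusters with at least 400 cells in each library, with red for higher and blue for lower in Batf3-/-. Fosl1 is left out for lack of UMIs. Atf3 in C1, C3 and C6 and Irf8 in C1 and C8 are the cells above 1.5-fold on the high side.

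The cytokine inputs of BATF and BATF2 were read from a list of 12 genes. Of the 68 gene and cluster pairs of this list (interleukin-12 and interferon receptors, their STAT factors and the cytokines), 4 passed 1.5-fold (5.88%, against 9.61% of all genes). Ifngr1, a chain of the interferon-γ receptor, was at 348 and 228 CPM in C6 (-0.61, -0.68 to -0.55). Stat4, which transmits interleukin-12 signals, was at 1.66 and 5.79 CPM in C6 (1.80, 1.14 to 2.50). Il12b, a subunit of interleukin-12, was lower in C2 (3.02 and 1.24 CPM) and C7 (1.97 and 0.847 CPM). In mature cDC1 (C12) Il12b was at 471 CPM in WT and 65.1 CPM in the 31 Batf3-/- cells (-2.86, -3.61 to -2.19). In C10, a mitotic cDC2a cluster, Il12b was higher in Batf3-/-, at 0.814 and 7.69 CPM from 2 and 29 UMIs (3.24, 1.26 to 6.35). Stat4 in C12 was at 17.5 and 3.62 CPM from 52 and 1 UMIs (-2.28, -7.61 to 0.26). Il12rb1 and Il12a, needed for the receptor and for the cytokine, had at most 21 UMIs in either library.

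Of the 4 lists, interferon-induced genes had the highest share past 1.5-fold, with 25 of 93 pairs (26.9%, against 9.61% of all genes), 10 higher and 15 lower in Batf3-/-. Most of these pairs were Ifit1, Ifit3 or Cxcl10, each counted in several clusters. Irf7, Irf1, Mx1 and Usp18 did not pass in any of the 8 large clusters, so the share does not describe the list as a whole. In C8, mature cDC2a, 6 of 11 were lower and 1 was higher, with Ifit3 at 38.6 and 13.1 CPM (-1.55, -2.02 to -1.11) and Isg15, a ubiquitin-like modifier, at 261 and 163 CPM. The cells under C8 differed in summed mature DC markers (998 CPM in WT and 1615 CPM in Batf3-/-), and the part of this in these ratios was not tested. In C6 4 of 12 were higher and none lower, with Ifit1 at 0.575 and 3.49 CPM (2.60, 1.56 to 3.82). Cxcl10, a chemokine, was higher in Batf3-/- in C1, C5, C6, C7 and C8 and lower in C3. Batf passed the same threshold in none of these clusters, and Batf2 could be read only in C2.

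The genes whose WT levels ranked most like those of each member were found over the 19 clusters with at least 50 WT cells. For Batf3 they were Id2 (Spearman rho 0.78), Adam8 (0.76), Arpin (0.75), Strbp (0.75) and Rab30 (0.74). Id2 is a helix-loop-helix inhibitor needed for cDC1. Over the 15 Batf3-/- clusters the values for residual Batf3 were 0.15, 0.27, 0.49, -0.09 and 0.29. For Batf they were Gzma (0.78), Cd2 (0.71), Calhm6 (0.68), Ifi209 (0.63) and Klf3 (0.62), with values in Batf3-/- of -0.01, 0.23, 0.62, 0.38 and 0.32. Batf and Batf3 levels ranked with a rho of -0.22 in WT. For Batf2, with 58 WT UMIs and many clusters at 0, the 5 nearest genes were Lcn2, AB124611, Cpt1a, Pgd and Mfsd5 (0.72 to 0.84), where tied clusters limit the ranking. These are descriptions over clusters of 1 library.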

How the data were processed

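Per the methods and processing notes, reads were processed with Cell Ranger (GRCm38) and cells were filtered and clustered in Seurat 3.0.5. The authors deposited raw UMI counts per gene and cell, which were used here. Clusters (resolution 0.5), SingleR labels and phases are also deposited. Normalized and antibody tag tables were not used here. Depth is 753 to 37040 UMIs per WT cell and 741 to 32835 per Batf3-/- cell. 56 barcode sequences occur in both libraries (0.458% and 0.462% of cells), and these cells were kept, as were the 541 WT and 244 Batf3-/- doublets that Scrublet called (scanpy 1.11.5, expected rate 0.1).

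Levels are summed UMIs over all UMIs of the same cells, per 1000000 (CPM), with exact Poisson intervals. Ratios need at least 20 cells in each library and carry exact intervals from the binomial split of the UMIs. Shares carry Clopper-Pearson intervals. A count of 0 is given as a floor of 3 UMIs. Levels of different genes are counts of 3′ ends and were not compared with each other. Python 3.11.15 was used with numpy 2.4.6, scipy 1.17.1 and pandas 2.3.3, and the computations were tested on simulated data.

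The genes named are the family members, the listed partner, cytokine and interferon genes, and the 5 genes per member with the highest rho among those with a mean of at least 10 CPM. Of the listed markers, Trac was not analysed here. The members, lists and the limit of 400 cells for counting 1.5-fold differences were chosen with earlier results of these data known.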

Additional observations from a re-analysis of the deposited data

How the results depend on the processing

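No paired analysis was possible because each genotype has 1 library. Genotype ratios were recomputed 210 times under other settings (per-cell means, other totals or weights, and shared barcodes, called doublets, cycling cells or clusters C9 and C17 left out), and 204 stayed within the counting interval of the reported ratio. The settings mostly reuse the same UMIs, and many intervals are wide, as for Batf in C4 (-2.35 to 0.51). A ratio could thus hardly leave its interval in small clusters, and this count says little there. No ratio whose interval excluded 0 changed sign, but the Batf interval of C0 came to cover 0 under 2 settings, and those of C6, C1 and C13 came to exclude it under 1 each. The 6 others were over all cells. Batf was at -0.24 with per-cell means and -0.029 with clusters weighted by the same WT shares and C4 left out, an alternative chosen after seeing the data. Batf2 was at -0.38 with these weights and C4 kept, and 0.84 with C4 left out, both outside the interval of the reported 0.28 (-0.25 to 0.82). The 31 Batf3-/- cells of C4 had no Batf2 UMI and entered as 0, which sets the first sign. Batf3 was at -5.66 with per-cell means and -5.93 in G1 cells alone. No value for G1 cells in C6 was possible, since WT C6 had too few. Leaving out doublets, also chosen after seeing the data, did not move the residual Batf3 UMIs beyond counting error. Shares of cells with a UMI rose with depth, for Batf from 1.97% to 3.92% at 2000 UMIs and 9.46% at 5000 UMIs in WT. Genes ranked most like each member depended on the measure: under Pearson r of log2(CPM + 1), 2 of 5 were kept for Batf, 2 for Batf3 and none for Batf2. With a 2-fold limit 930 genes passed in C6 in place of 1950, 1042 in all cells in place of 2317, and at most 380 in the 7 other large clusters in place of 785 to 1186. With at least 50 UMIs, 354 to 658 passed in those 7, or 3.59% to 6.75% of the genes tested, and 14.3% passed in C6. The shares of the gene lists were not recomputed at that limit. They can be set only beside the share of all genes with at least 20 UMIs. Depth limited Batf2 throughout, and Batf in C4, C9, C12 and C14 to C19.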
